A study of Mus musculus with 13 samples.

Results

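The genes described here are 36 genes of skeletal muscle, the contractile tissue that moves the skeleton, as measured in tumours of the 4T1 line. Each gene was found by its symbol in the table of expression values. All 36 of 36 had exactly 1 feature on the array, out of 19505 named genes and 22206 features. By role they comprised 3 thin filament genes, 6 troponin genes, 8 myosin genes, 8 genes of the Z-disc and its scaffold, 5 of calcium handling, 5 of metabolism and oxygen, and the transcription factor gene Myod1. By textbook fibre type, 13 were fast fibre genes, 6 were slow fibre genes and 17 belonged to neither class.

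RNA was measured on 12 Clariom S mouse arrays, each hybridised with RNA pooled from mammary fat pad tumours of BALB/c mice. The hosts were WT BALB/c or Nlrx1-/- BALB/c, Nlrx1 being the gene of a mitochondrial protein of the NOD-like receptor family. The injected cells were 4T1, a mouse mammary carcinoma line, in an untransduced parental form, as the transduced line 4T1OE, which carries NLRX1 overexpression, or as its transduced control 4T1OE-CTL. The 6 groups were WT parental, Nlrx1-/- parental, WT 4T1OE-CTL, Nlrx1-/- 4T1OE-CTL, WT 4T1OE and Nlrx1-/- 4T1OE, with 2 arrays each. The tumour cells carried their own Nlrx1 gene in either host. Host age, the number of tumours in a pool and the promoter of the construct were not given in the sources used here. Each transduced line was a single line, so a difference between lines cannot be told apart from an effect of the construct. Nothing in the labels said how the pools of a group were drawn, so p-values below measure the spread between these pools. All values are deposited log2 expression values, where 1 unit is a 2-fold difference.

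Skeletal muscle contracts when myosin heads pull on actin filaments inside the sarcomere, whose ends are anchored in the Z-disc. Troponin and tropomyosin on the thin filament hold this back until calcium is released from the sarcoplasmic reticulum. Fast fibres use other isoforms of myosin, troponin and the calcium pump than slow fibres, and muscle layers lie close to the mammary fat pad in mice.

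To show the regulatory sequence behind the genes that differed most between arrays, the promoters of the 5 members with the widest range over the arrays and a single annotated start are printed, beside those of the 3 slow fibre genes with a single start. Each is the 250 bases before the annotated start, from RefSeq on GRCm38.p6, read 5′ to 3′ along the gene. Capitals mark each E-box, CANNTG, the letters that MyoD and its relatives bind. The windows are Myh4 at chr11:67237562-67237811 (plus strand), Acta1 at chr8:123894776-123895025 (minus strand), Myl1 at chr1:66945057-66945306 (minus strand), Atp2a1 at chr7:126463074-126463323 (minus strand) and Mylpf at chr7:127211358-127211607 (plus strand). The slow fibre windows are Tnnt1 at chr7:4515976-4516225 (minus strand), Myl3 at chr9:110763428-110763677 (plus strand) and Tnnc1 at chr14:31208062-31208311 (plus strand).
Myh4: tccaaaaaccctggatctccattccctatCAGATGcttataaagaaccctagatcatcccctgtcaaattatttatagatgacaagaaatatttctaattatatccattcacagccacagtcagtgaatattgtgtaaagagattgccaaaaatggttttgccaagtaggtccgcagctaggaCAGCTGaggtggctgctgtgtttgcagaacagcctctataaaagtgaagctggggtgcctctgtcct
Acta1: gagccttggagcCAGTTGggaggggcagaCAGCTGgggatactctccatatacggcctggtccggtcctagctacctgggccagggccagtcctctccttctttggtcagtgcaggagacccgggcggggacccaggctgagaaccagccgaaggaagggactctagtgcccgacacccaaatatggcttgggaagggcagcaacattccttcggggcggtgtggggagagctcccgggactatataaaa
Myl1: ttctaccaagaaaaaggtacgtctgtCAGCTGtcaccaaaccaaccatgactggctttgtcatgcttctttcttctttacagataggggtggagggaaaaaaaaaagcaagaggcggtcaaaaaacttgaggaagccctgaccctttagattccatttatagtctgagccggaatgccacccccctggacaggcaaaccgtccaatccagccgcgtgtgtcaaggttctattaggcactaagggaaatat
Atp2a1: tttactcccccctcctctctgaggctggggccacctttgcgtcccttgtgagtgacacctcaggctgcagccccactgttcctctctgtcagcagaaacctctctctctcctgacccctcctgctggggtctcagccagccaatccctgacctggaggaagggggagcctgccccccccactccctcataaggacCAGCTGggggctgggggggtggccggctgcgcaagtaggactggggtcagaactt
Mylpf: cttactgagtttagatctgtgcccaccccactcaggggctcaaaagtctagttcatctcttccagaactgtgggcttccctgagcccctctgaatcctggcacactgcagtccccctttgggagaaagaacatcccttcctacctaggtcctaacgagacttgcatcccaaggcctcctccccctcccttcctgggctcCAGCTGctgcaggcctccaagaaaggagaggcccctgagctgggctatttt
Tnnt1: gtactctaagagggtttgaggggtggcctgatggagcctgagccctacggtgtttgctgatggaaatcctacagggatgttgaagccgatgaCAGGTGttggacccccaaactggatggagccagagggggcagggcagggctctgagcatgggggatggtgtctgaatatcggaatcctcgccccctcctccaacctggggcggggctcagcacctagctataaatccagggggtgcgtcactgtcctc
Myl3: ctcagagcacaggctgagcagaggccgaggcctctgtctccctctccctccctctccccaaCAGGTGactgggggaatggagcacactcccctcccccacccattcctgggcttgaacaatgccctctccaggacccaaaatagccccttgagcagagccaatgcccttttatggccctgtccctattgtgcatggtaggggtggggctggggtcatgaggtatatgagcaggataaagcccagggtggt
Tnnc1: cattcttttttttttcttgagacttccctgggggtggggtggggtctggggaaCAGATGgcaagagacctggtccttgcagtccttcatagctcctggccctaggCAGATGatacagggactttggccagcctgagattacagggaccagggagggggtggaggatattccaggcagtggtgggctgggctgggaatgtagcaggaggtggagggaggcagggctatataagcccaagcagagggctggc

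Each of the first 5 windows held the E-box CAGCTG once, at position -67 in Myh4, -221 in Acta1, -224 in Myl1, -55 in Atp2a1 and -51 in Mylpf, where -1 is the base before the start. None of the 3 slow fibre windows held it. Of the 36 members 27 had a window in the table. Those without were Tnnt3, Tnni2, Actn3, Myoz1, Neb, Myot, Tcap, Car3 and Myod1. CAGCTG, which reads the same on both strands and is 1 form of CANNTG, stood in the windows of 14 of these 27 genes (51.9%), against 14.7% of the 27025 genes in the table. Any CANNTG stood in 23 of 27 (85.2%), against 69.3% of all. The CArG box, bound by serum response factor, was found in 4 of 27 members, against 1.62% of all genes, and the MEF2 motif in 4 of 27, against 3.42%. By class, CAGCTG stood in 5 of the 9 fast fibre genes with a window and in 2 of the 6 slow fibre genes. A match is a description of these letters and not a bound site.

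A short account of the arrays comes before the values. Array medians ran from 5.89 to 6.25. The service that ran the arrays advised leaving 1 sample out, inferred here to be Nlrx1-/- parental replicate 1, which had the lowest median correlation with the other arrays (r = 0.896 across features) and the smallest standard deviation (2.53, against 2.78 to 3.12). Its values are shown with the rest, and it is left out of the fits, so Nlrx1-/- parental has 1 fitted array. Nlrx1 itself ran from 9.31 to 10.67 on the 4 4T1OE arrays, from 5.99 to 7.06 on the 4T1OE-CTL arrays and from 6.14 to 7.13 on the parental arrays. Background was read from 5222 negative control features, whose median on an array was 5.24 to 5.96 and whose 90th percentile was 7.61 to 9.39. Of the 36 members, 10 lay above that median on all 12 arrays, 23 on some arrays, and Tnni1, Myh7 and Myod1 on none.

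**Figure D1:**
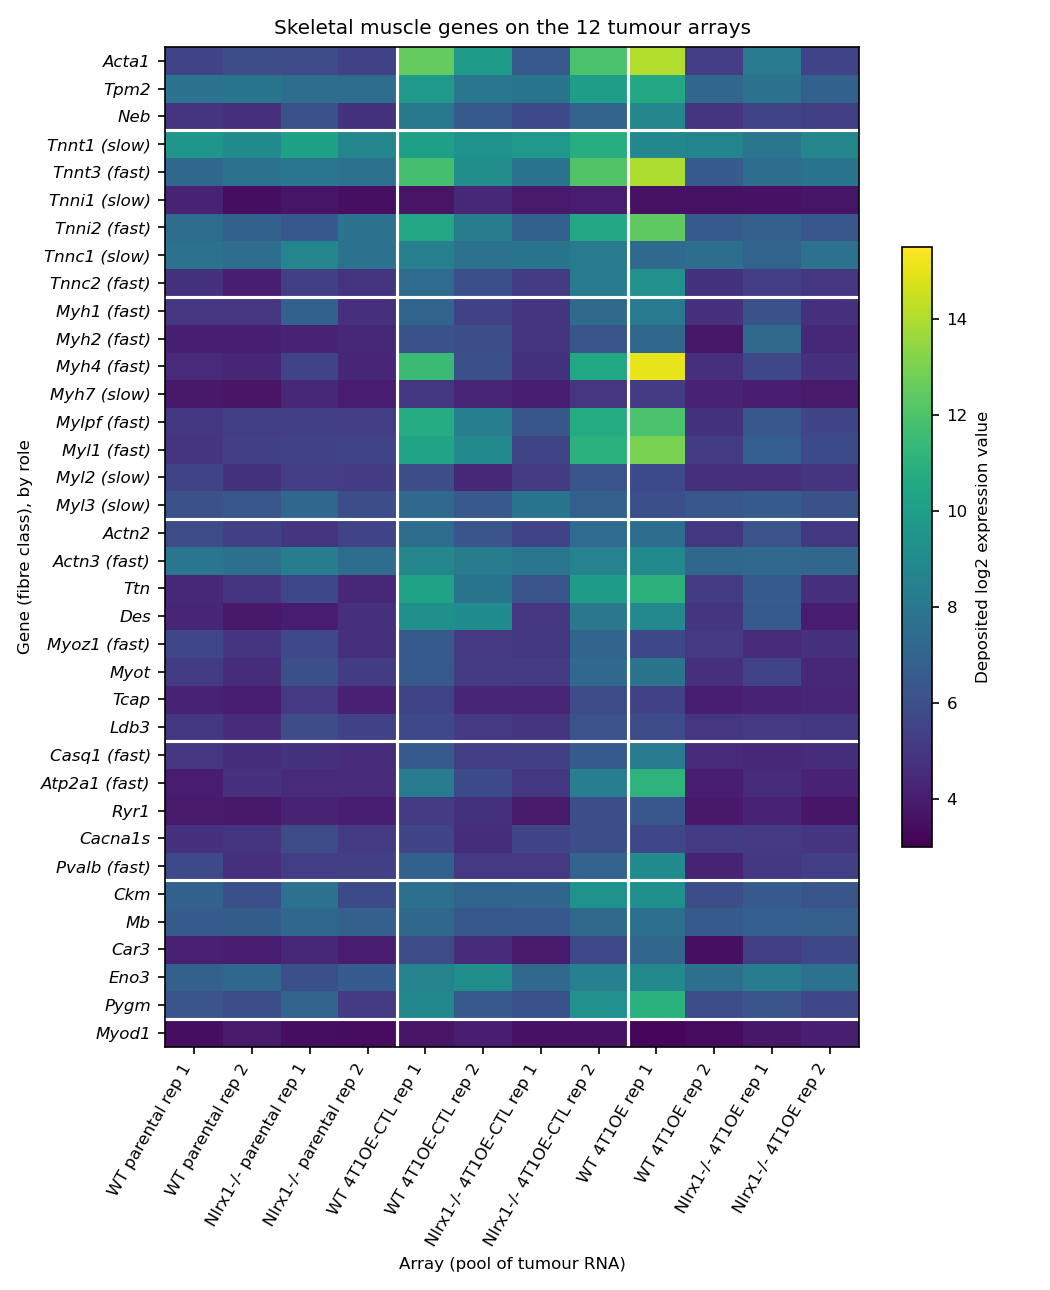
Deposited log2 expression values of the 36 members (rows, grouped by role with white lines between roles) on the 12 tumour arrays (columns, with white lines between cell lines); brighter colours are higher values. WT 4T1OE replicate 1, WT 4T1OE-CTL replicate 1 and Nlrx1-/- 4T1OE-CTL replicate 2 stand out, with Myh4 at 15.08, 11.54 and 10.46.

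The members were high on 3 arrays, which belonged to 3 different groups. These were WT 4T1OE replicate 1, WT 4T1OE-CTL replicate 1 and Nlrx1-/- 4T1OE-CTL replicate 2, and in each case the other pool of the same group was lower. For 24 of 36 members these 3 arrays were the 3 highest of the 12, as they were for 106 of all 22206 features (0.477%). The 24 included 11 of 13 fast fibre genes, 11 of 17 of neither class and, of the 6 slow fibre genes, Myh7 and Myl2. Myh7 lay below the negative control median on every array, so its place in this count carries no order. The arrays were picked out by the members' own values, so these counts describe them and test nothing. Which tissue or cell gave these transcripts was not tested, and in pooled bulk RNA fewer cells of a type and less RNA per cell cannot be told apart.

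As a set, the members' median deviation from each gene's median over the 12 arrays was 2.61 on WT 4T1OE replicate 1, 1.69 on Nlrx1-/- 4T1OE-CTL replicate 2 and 1.49 on WT 4T1OE-CTL replicate 1. WT 4T1OE-CTL replicate 2 came next, at 0.36. The remaining 8 arrays lay between -0.48 (WT 4T1OE replicate 2) and 0.12 (Nlrx1-/- parental replicate 1). Of the 36 members 21 exceeded the 90th percentile of the negative controls on WT 4T1OE replicate 1, 15 on WT 4T1OE-CTL replicate 1, 12 on Nlrx1-/- 4T1OE-CTL replicate 2 and 11 on WT 4T1OE-CTL replicate 2. Nlrx1-/- 4T1OE replicate 1 had 4 such members, and the other 7 arrays had 1 or 2 each. WT 4T1OE replicate 1 held the highest value of 22 members, and Nlrx1-/- 4T1OE-CTL replicate 2 that of 7.

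In the thin filament, Acta1 encodes skeletal muscle actin. Its values in WT replicates 1 and 2 and Nlrx1-/- replicates 1 and 2, the order used for every gene here, were 5.53, 5.94, 5.88 and 5.47 in parental tumours, 12.51, 9.83, 6.48 and 11.92 in 4T1OE-CTL tumours, and 14.04, 5.27, 8.21 and 5.53 in 4T1OE tumours. All 4 parental arrays were low, all 4 4T1OE-CTL arrays lay above them, and 4T1OE arrays overlapped with both. The largest gap within a group was in WT 4T1OE, where the replicates differed by at least 8.66 with the lower one taken at the negative control median of its array. Tpm2, beta-tropomyosin, followed with 7.78, 7.83, 7.54 and 7.48 in parental, 9.70, 7.92, 7.86 and 10.02 in 4T1OE-CTL, and 10.54, 7.12, 7.68 and 6.87 in 4T1OE tumours. Neb, the gene of the giant thin filament protein nebulin, ran from 4.68 to 6.16 in parental tumours, was 8.04, 6.53, 5.74 and 6.99 in 4T1OE-CTL tumours, and was 8.80 on WT 4T1OE replicate 1 against 4.89 to 5.58 on the other 4T1OE arrays.

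Troponin has a calcium-binding, an inhibitory and a tropomyosin-binding subunit, each with a fast and a slow skeletal form. The fast tropomyosin-binding subunit gene Tnnt3 was at 7.17, 7.74, 7.92 and 7.71 in parental, 11.84, 9.15, 7.82 and 12.10 in 4T1OE-CTL, and 14.0, 6.61, 7.53 and 7.79 in 4T1OE tumours. The fast inhibitory subunit gene Tnni2 was at 7.41, 6.88, 6.46 and 7.74, then 10.55, 8.26, 6.90 and 10.52, then 12.40, 6.54, 6.83 and 6.39 in the same order. The fast calcium-binding subunit gene Tnnc2 was at 4.84, 4.03, 5.36 and 4.89, then 7.37, 6.04, 5.19 and 8.09, then 9.30, 4.81, 5.26 and 4.95. All 3 fast subunits had the same 3 arrays on top, and their replicates in WT 4T1OE differed by 7.35 for Tnnt3, 5.86 for Tnni2 and at least 3.91 for Tnnc2.

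The slow troponin genes behaved otherwise. Tnnt1, the slow tropomyosin-binding subunit, exceeded the 90th percentile of the negative controls on all 12 arrays. Its values were 9.53, 9.01, 10.17 and 8.80 in parental, 10.07, 9.43, 9.66 and 10.81 in 4T1OE-CTL, and 8.81, 8.64, 7.90 and 8.72 in 4T1OE tumours. Every 4T1OE-CTL array lay above every 4T1OE array. WT 4T1OE replicate 1, the highest array for the fast forms, was here at 8.81. That was the highest 4T1OE value, but with the next at 8.72. Tnnc1, the slow and cardiac calcium-binding subunit, was at 7.71, 7.46, 8.72 and 7.70, then 8.46, 7.67, 7.85 and 8.20, then 7.27, 7.54, 6.997 and 7.73. Its highest value was on the array left out of the fits. Tnni1, the slow inhibitory subunit, stayed between 3.45 and 4.46 and below the negative control median on every array, so its values cannot be ordered.

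**Figure D2:**
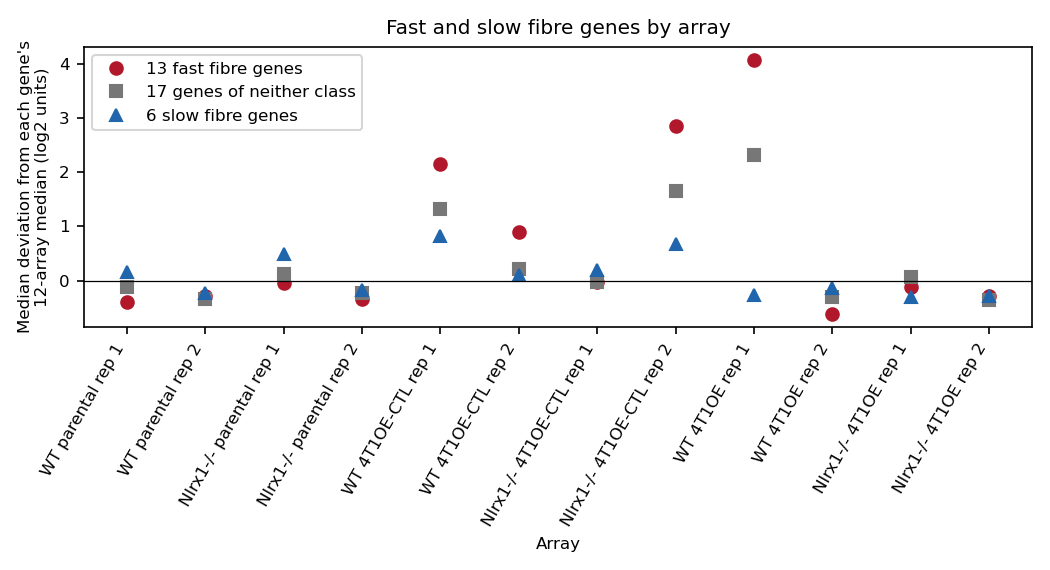
Median deviation of the 13 fast fibre genes (red circles), 17 genes of neither class (grey squares) and 6 slow fibre genes (blue triangles) from each gene's median over 12 arrays, in log2 units, for each array. On WT 4T1OE replicate 1 the fast fibre genes lie at 4.07 and the slow fibre genes at -0.26.

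Myosin heavy chains are the motors of the thick filament, and the light chains bind their necks. Myh4, the fast 2B heavy chain, had the widest range of any member. It was at 4.50, 4.36, 5.49 and 4.35 in parental, 11.54, 6.06, 4.82 and 10.46 in 4T1OE-CTL, and 15.08, 4.74, 5.71 and 4.79 in 4T1OE tumours. The lowest of the 3 high arrays lay 4.40 above the highest of the other 9. Within a group the replicates differed by at least 9.70 in WT 4T1OE, by 5.48 in WT 4T1OE-CTL and by at least 4.78 in Nlrx1-/- 4T1OE-CTL.

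The other fast heavy chains did not track Myh4 on every array. Myh1, the 2X heavy chain, was at 5.002, 4.99, 6.87 and 4.68, then 7.05, 5.49, 4.88 and 7.34, then 8.10, 4.79, 6.10 and 4.71. Myh2, the 2A heavy chain, was at 4.11, 4.11, 4.21 and 4.41, then 6.16, 5.97, 4.87 and 6.26, then 7.24, 3.82, 7.30 and 4.43. Myh2 was thus as high on Nlrx1-/- 4T1OE replicate 1 as on WT 4T1OE replicate 1, lying at least 1.89 and 1.83 above the parental mean, each parental array again taken at its negative control median. For Myh4 the same figures were 0.30 and 9.67. Myh1, Myh2, Myh4 and Myh8 are near-identical neighbours on chromosome 11, in the order Myh3, Myh2, Myh1, Myh4, Myh8 and Myh13. No source used here says how far the probes separate them, and the split between them is uncertain. The slow heavy chain Myh7 ran from 3.67 to 5.16. It lay below the negative control median everywhere, so its values cannot be ordered, although the 3 highest fell on the same 3 arrays.

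Among the light chains, the fast regulatory chain Mylpf was at 5.02, 5.32, 5.38 and 5.26 in parental, 10.74, 8.33, 6.37 and 10.67 in 4T1OE-CTL, and 11.90, 4.82, 6.39 and 5.60 in 4T1OE tumours. The fast essential chain Myl1 was at 4.89, 5.39, 5.40 and 5.52, then 10.32, 8.96, 5.61 and 10.96, then 12.99, 5.17, 6.76 and 5.79. Both were above all 4 parental arrays on every 4T1OE-CTL array. The slow essential chain Myl3 was at 6.08, 6.39, 7.19 and 6.00, then 7.28, 6.48, 7.85 and 6.85, then 6.05, 6.41, 6.57 and 6.10. Its highest value was on Nlrx1-/- 4T1OE-CTL replicate 1, where the fast light chains were at 6.37 and 5.61. The slow regulatory chain Myl2 ran only from 4.43 to 6.30.

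The Z-disc and scaffold genes split into wide and narrow ones. Ttn, titin, the molecular spring of the sarcomere, was at 4.45, 4.95, 5.69 and 4.45 in parental, 10.18, 7.84, 6.23 and 9.91 in 4T1OE-CTL, and 11.04, 5.22, 6.59 and 4.75 in 4T1OE tumours. Des, desmin, the intermediate filament that links Z-discs and is also made by smooth muscle, was at 4.33, 3.86, 3.96 and 4.73, then 9.27, 9.08, 4.98 and 8.02, then 8.88, 4.95, 6.56 and 3.95. In WT 4T1OE-CTL the Des replicates were only 0.18 apart, much as those of Myh2 were (0.19), while those of Acta1 were 2.68 apart. Actn2, alpha-actinin 2, was highest at 7.54, 7.44 and 7.38 on the 3 high arrays and ran from 4.95 to 6.28 on the other 9. Actn3, the alpha-actinin of fast fibres, was above the negative control median on all 12 arrays but reached only from 7.14 to 8.93.

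Myot, myotilin, was at 7.82, 6.52 and 7.26 on WT 4T1OE replicate 1, WT 4T1OE-CTL replicate 1 and Nlrx1-/- 4T1OE-CTL replicate 2, and at 4.42 to 6.04 on the rest. Tcap, the titin cap, was at 5.48, 5.55 and 5.84 on these and at 4.05 to 5.07 elsewhere. Myoz1, a calcineurin-binding Z-disc gene of fast fibres, reached 7.05 on Nlrx1-/- 4T1OE-CTL replicate 2 and 6.55 on WT 4T1OE-CTL replicate 1. On WT 4T1OE replicate 1 it was only at 5.73, unlike the other fast fibre genes. Ldb3, of the Z-disc protein Cypher, ran from 4.61 to 6.18.

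In calcium handling, Atp2a1 encodes SERCA1, the fast fibre pump that returns calcium to the sarcoplasmic reticulum. It was at 4.00, 4.78, 4.47 and 4.60 in parental, 8.20, 5.82, 5.04 and 8.34 in 4T1OE-CTL, and 11.09, 4.07, 4.57 and 4.24 in 4T1OE tumours. Casq1, the calcium store protein calsequestrin, was at 4.99, 4.64, 4.84 and 4.59, then 6.61, 5.28, 5.38 and 6.64, then 8.08, 4.55, 4.44 and 4.65. Pvalb, parvalbumin, a calcium buffer of the fastest fibres, was at 5.78, 4.73, 5.25 and 5.36, then 6.90, 5.08, 5.06 and 6.95, then 9.01, 4.19, 5.01 and 5.34. These 3 genes again had the same arrays on top. The calcium release channel Ryr1 reached 6.41 and 6.03 on WT 4T1OE replicate 1 and Nlrx1-/- 4T1OE-CTL replicate 2 and was above the negative control median on those 2 arrays alone. Cacna1s, its voltage sensor, ran from 4.64 to 6.00.

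The metabolic genes were less uniform. Pygm, muscle glycogen phosphorylase, was at 6.31, 6.02, 7.03 and 5.19 in parental, 8.86, 6.51, 6.15 and 9.34 in 4T1OE-CTL, and 11.0, 6.00, 6.28 and 5.65 in 4T1OE tumours. Ckm, muscle creatine kinase, was at 6.87, 6.05, 7.68 and 5.83, then 7.55, 7.03, 7.07 and 9.37, then 9.27, 5.99, 6.65 and 6.25. Eno3, the muscle form of the glycolytic enzyme enolase, was at 6.82, 7.23, 6.06 and 6.64, then 8.58, 9.23, 7.29 and 8.43, then 8.90, 7.60, 8.26 and 7.71. Its highest value was on WT 4T1OE-CTL replicate 2, and every 4T1OE-CTL and 4T1OE array lay above every parental array. Car3, carbonic anhydrase 3, also made by fat cells, was highest on WT 4T1OE replicate 1 (7.12), at 5.38 and 5.72 on the Nlrx1-/- 4T1OE arrays and at 4.00 to 4.40 in parental tumours. Mb, myoglobin, the oxygen store of oxidative fibres, ran from 6.43 to 7.55. Myod1, which encodes the myogenic transcription factor MyoD, ran from 3.23 to 4.03, below the negative control median on every array.

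**Figure D3:**
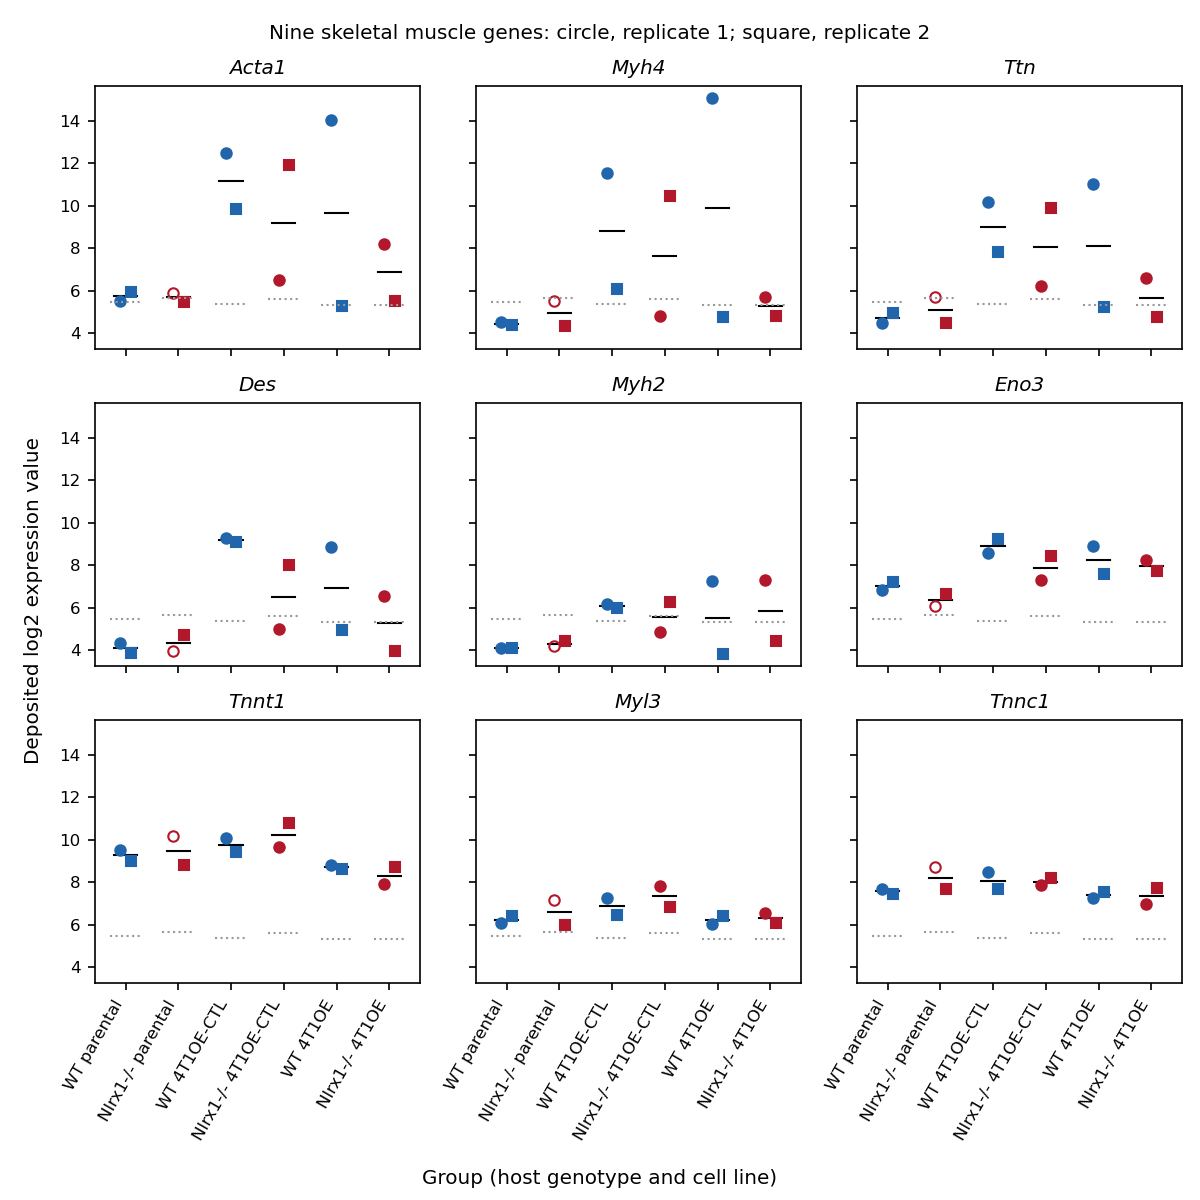
Deposited log2 values of 9 members in the 6 groups (blue, WT hosts; red, Nlrx1-/- hosts; circles, replicate 1; squares, replicate 2; open circle, the array left out of the fits). Black bars are means of both arrays and dotted lines the mean negative control median of the group; the 2 arrays of WT 4T1OE are 14.04 and 5.27 for Acta1 but 8.81 and 8.64 for Tnnt1.

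Fast and slow fibre genes were set against each other on each array. The fast genes' median deviation was 4.07 on WT 4T1OE replicate 1, 2.86 on Nlrx1-/- 4T1OE-CTL replicate 2, 2.14 on WT 4T1OE-CTL replicate 1 and 0.90 on WT 4T1OE-CTL replicate 2. It was from -0.61 to -0.03 on the other 8. The slow genes' median deviation on the first 4 arrays, in that order, was -0.26, 0.67, 0.82 and 0.10, and on the other 8 it lay between -0.31 and 0.50. WT 4T1OE replicate 1 therefore had the highest fast value and 1 of the lower slow values, whereas both 4T1OE-CTL arrays with a high fast value also had the highest slow values. This is a description of 12 arrays. Of the slow genes Tnni1 and Myh7 lay under the background throughout, so the slow median rests on few measured genes.

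WT 4T1OE-CTL replicate 2 showed an uneven set. Relative to the parental mean Acta1 was 4.18 higher there, Myl1 3.69, Mylpf 3.13 and Eno3 2.33, with Des at least 3.67 and Ttn at least 2.42 higher. On the same array Myh4 was at least 0.64 higher, Pygm 0.67, and Pvalb was at -0.21. On replicate 1 of that group the values for Acta1, Myl1 and Mylpf were 6.86, 5.06 and 5.54, for Des at least 3.85 and for Myh4 at least 6.12. Des and Eno3 were thus about as high or higher on replicate 2, while Myh4 and Pygm were not.

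On Nlrx1-/- 4T1OE replicate 1 a few members were higher than in the other pool of that group. Acta1 differed by 2.68, Myh2 by at least 1.89 and Des by at least 1.14. These were the 3 of 36 members more than 2 units apart in that direction before the background was taken into account (0.473% of features, with 0.00901% past 2 units in the other), and with it Acta1 alone remained. Over all 36 members the median difference between these pools was 0.32.

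In the 4T1OE-CTL groups and in WT 4T1OE the pools of a group lay further apart in the fast genes than in the slow ones, with median differences between replicates 1 and 2 of 1.56 and 0.76 in WT 4T1OE-CTL, -2.90 and -0.64 in Nlrx1-/- 4T1OE-CTL, and 4.81 and 0.07 in WT 4T1OE. In the parental groups the order was the other way, with 0.14 for the fast and 0.38 for the slow genes in WT hosts, and 0.21 and 0.73 in Nlrx1-/- hosts, where replicate 1 is the array left out of the fits. Many fast genes, such as Myh2, Myh4 and Atp2a1, lay under the negative control median on the parental arrays, so their small differences there cannot be read. In Nlrx1-/- 4T1OE the medians were 0.33 for the fast and -0.12 for the slow genes. In WT 4T1OE 22 of 36 members were more than 2 units higher on replicate 1, against 0.221% of features (0.0856% were lower), and 19 with the background taken into account. In Nlrx1-/- 4T1OE-CTL 17 members were more than 2 units lower on replicate 1, against 0.621% of features (1.5% were higher), and 13 with the background. In WT 4T1OE-CTL 8 members were more than 2 units higher on replicate 1, against 0.401% of features (0.347% were lower). None of the slow genes was past 2 units in any group. In WT parental tumours 0 members were past 2 units in either direction, against 1.18% of features higher and 0.378% lower on replicate 1, and in Nlrx1-/- parental tumours only Myh1 was, against 5.29% higher and 7.6% lower, and with the background taken into account 0 members were.

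Over the fitted arrays the median within-group standard deviation was 1.31 for the 36 members, 1.77 for the fast genes, 0.470 for the slow genes and 0.337 for all features. It exceeded the 95th percentile of all features (5% by construction) for 24 of 36 members, namely 12 of 13 fast genes, 12 of 17 of neither class and 0 of 6 slow genes. Slow Myl2, at 0.741, lay at percentile 94.99, just under that limit, and above the negative control median on only 3 arrays. Tnni1 and Myh7 lay under the negative control median on every array. Myh4 was widest at 4.12, followed by Acta1 at 3.48, Myl1 at 3.05, Tnnt3 at 2.83 and Mylpf at 2.74. Actn3 was the fast gene with the narrowest spread, at 0.615, and Myod1 the narrowest member, at 0.193.

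**Figure D4:**
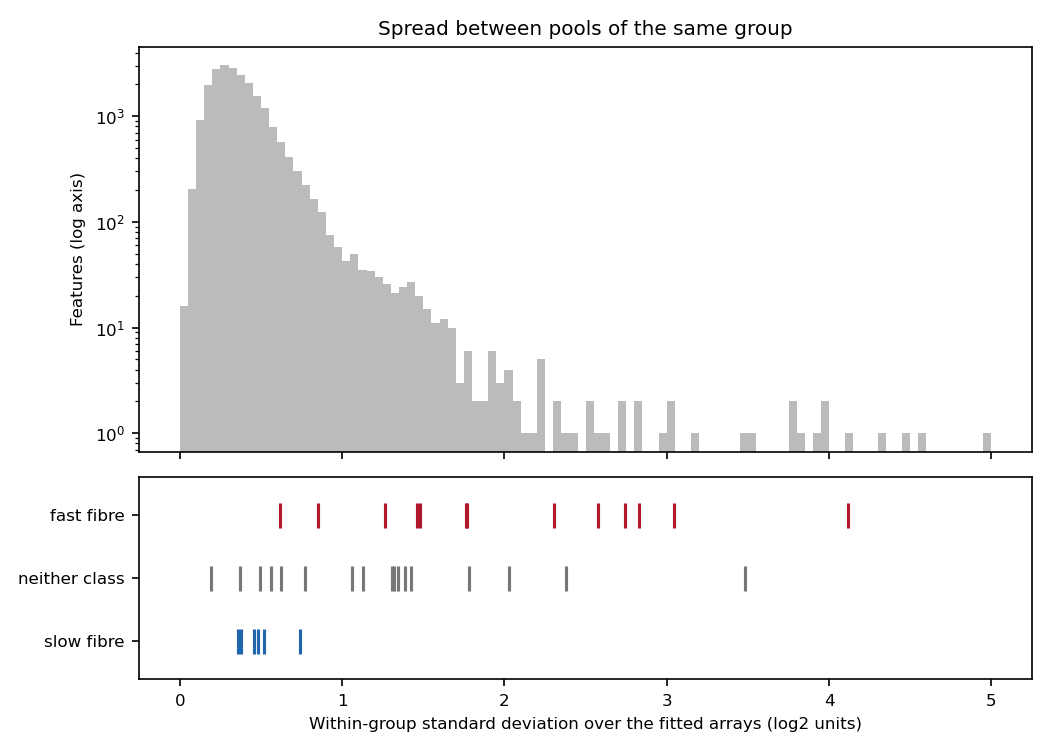
Upper panel, number of features (log axis) by within-group standard deviation over the fitted arrays, in log2 units; lower panel, the same for each member by fibre class, 1 tick a gene. The slow fibre genes lie between 0.360 and 0.741, and Myh4, the rightmost fast fibre gene, lies at 4.12.

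The study's main comparison asked what differs between tumours of the overexpressing line and of its transduced control. Of the 36 members 34 had a lower fitted value in 4T1OE than in 4T1OE-CTL tumours. The 34 include Tnni1, Myh7 and Myod1, which lay under the negative control median on every array, so their signs cannot be read. In limma, with adjustment over all features, only 1 member passed: Tnnt1 fell by 1.48 (SE 0.320, adjusted p = 0.0296). Its mean was 8.52 ± 0.417 (SD, n = 4) in 4T1OE and 9.99 ± 0.606 (n = 4) in 4T1OE-CTL tumours. Among all features 1.04% were called lower and 3.69% higher. Tnnt1 was also the 1 member of 36 whose 2 sets of arrays did not overlap, as held for 7.13% of features in that direction and 9.39% in the other. Leaving out any 1 of WT 4T1OE replicate 1 or 2, Nlrx1-/- 4T1OE replicate 1 or 2, WT 4T1OE-CTL replicate 1 or Nlrx1-/- 4T1OE-CTL replicate 2 ended the call (differences of -1.57, -1.50, -1.26, -1.57, -1.46 and -1.15, limma adjusted p from 0.0583 to 0.106). With the standard deviation of each array as a covariate the difference was -0.57 (limma adjusted p = 0.696), and with all 12 arrays it was -1.48 (limma adjusted p = 0.125). Without the 2 fitted arrays high in lymph node genes it was -1.38 (limma adjusted p = 0.105). Without WT 4T1OE replicate 1 the fast fibre gene Actn3 passed in place of Tnnt1, and without WT 4T1OE-CTL replicate 2 the slow fibre genes Myl3 and Tnnc1 passed beside it.

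The next smallest p-values were those of 2 further slow fibre genes, which did not pass. Myl3 had a difference of -0.83 (SE 0.274, limma adjusted p = 0.0995) and Tnnc1 one of -0.66 (SE 0.230, limma adjusted p = 0.113). The fast genes had a median difference of -0.75, and the members as a whole one of -0.61, against -0.05 over all features. The members' median was -1.21 without WT 4T1OE replicate 1, -0.93 without WT 4T1OE-CTL replicate 2, -0.16 without WT 4T1OE replicate 2 and -0.16 without Nlrx1-/- 4T1OE-CTL replicate 2. It turned to 0.31 with the spread of each array as a covariate. The members' median standard error was 0.669, against 0.241 for all features. The median difference was thus smaller than the median standard error.

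The second comparison set the transduced control line against the parental line, with the same 4T1OE-CTL arrays as the first. All 36 members had a higher fitted value in 4T1OE-CTL tumours, with a median of 1.20 against 0.02 over all features. For Tnni1, Myh7 and Myod1, under the negative control median on every array, the sign cannot be read. A difference, or a bound where 1 side lay under background, could be given for 30 members, with a median of 1.19. Eno3 alone passed, rising by 1.58 (SE 0.375, limma adjusted p = 0.0482), from 6.90 ± 0.300 (SD, n = 3) to 8.38 ± 0.805 (n = 4). Of all features 0.968% were called higher and 1.62% lower. The call ended under 4 alternative fits, with a limma adjusted p of 0.0535 with all 12 arrays, 0.114 with array weights, 0.0653 with the replicate number as a block and 0.0690 with 1 mean for each of the 6 groups. With single arrays left out, the difference stayed between 1.35 and 1.85, and the call was kept only without WT 4T1OE replicate 2 or without Nlrx1-/- 4T1OE-CTL replicate 1 (limma adjusted p = 0.0320 and 0.0169). Des and Ttn came next. Des was at least 2.42 higher and Ttn at least 3.13 higher, the parental arrays lying under their negative control medians for both. The limma adjusted p, 0.0768 for Des and 0.112 for Ttn, belongs to the fitted difference and not to these bounds. Without Nlrx1-/- 4T1OE-CTL replicate 1 Des passed beside Eno3, and without WT 4T1OE replicate 1 Ttn and Neb passed in its place.

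By array, 19 of 36 members were higher on all 4 4T1OE-CTL arrays than on the 3 fitted parental arrays, against 4.88% of features (6.42% were lower on all 4). They comprised 9 of 13 fast, 2 of 6 slow and 8 of 17 other members. The slow ones were Myl3 and Myh7, and Myh7 lay below the negative control median on every array. When the parental array left out of the fits was counted too, 10 of 36 remained above all 4, against 2.59% of features: Acta1, Tpm2, Myh2, Mylpf, Myl1, Ttn, Des, Casq1, Atp2a1 and Eno3. On Nlrx1-/- 4T1OE-CTL replicate 1, the lowest of the 4 for most of them, Myh2, Myl1, Des, Casq1 and Atp2a1 lay at 4.87, 5.61, 4.98, 5.38 and 5.04, under the negative control median of that array (5.68). Of the 19, Tnnc2, Myh4 and Tcap lay under it there too, at 5.19, 4.82 and 4.30. Both counts thus include genes whose order on that array cannot be read. In limma 12 members of 36 (33.3%) had an unadjusted p under 0.05, against 15.9% of all features, and 1 passed the adjusted threshold.

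The third comparison, 4T1OE against parental tumours, shares its arrays with the first and the second. None of the 36 members passed in limma, against 0.887% of features called higher and 0.441% lower, and 1 (2.78%) had an unadjusted p under 0.05, against 13.8% of all features. Eno3 had the smallest p, with a difference of 1.32 (SE 0.375, limma adjusted p = 0.122). Ttn was at least 1.48 higher and Neb at least 0.75 higher. The limma adjusted p, 0.405 for each, again belongs to the fitted difference and not to the bound. By array, Eno3 and Myh4 had 4T1OE arrays entirely above the 3 fitted parental ones, against 9.96% of features (7.87% lay entirely below), though Myh4 was under the negative control median on 2 of those 4T1OE arrays. The members' median was 0.75, with 1.49 for the fast and -0.15 for the slow genes. Without WT 4T1OE replicate 1 the members' median was -0.01, and without WT 4T1OE replicate 2 it was 1.34.

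Host genotype was compared over 5 Nlrx1-/- and 6 WT arrays. None of the 36 members differed in limma, 0 had an unadjusted p under 0.05, and of all features 0% were called in either direction (0 of 22206, with 955 at an unadjusted p under 0.05). The 3 smallest p-values were those of Eno3 (-0.59, SE 0.298), Des (-1.47, SE 0.811) and Actn3 (-0.51, SE 0.287), each with a limma adjusted p of 1.00. The fitted value was lower in Nlrx1-/- hosts for 30 of 36 members. The 30 include Tnni1 and Myh7, under the negative control median on every array, whose signs cannot be read. The members' median was -0.46, with a median standard error of 0.579. That median rested on single arrays: it was -0.02 without WT 4T1OE replicate 1, -0.21 without Nlrx1-/- 4T1OE-CTL replicate 1, -0.29 without Nlrx1-/- 4T1OE replicate 2, -0.72 without WT 4T1OE replicate 2 and -0.73 without Nlrx1-/- 4T1OE-CTL replicate 2. With single arrays left out, the difference ran from -0.82 to -0.36 for Eno3, from -2.17 to -0.86 for Des and from -0.70 to -0.21 for Actn3. The highest array for most members, WT 4T1OE replicate 1, was a WT array, and the lowest for Acta1, WT 4T1OE replicate 2, was its partner.

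Whether the difference between 4T1OE and 4T1OE-CTL depended on the host was tested as an interaction. In limma 0 members passed, with 1 at an unadjusted p under 0.05, and 0% of features were called (0 of 22206, with 726 at an unadjusted p under 0.05). Myod1 (0.88), Cacna1s (-1.08) and Ckm (-2.11) had the smallest p-values, each with a limma adjusted p of 0.999. Ckm was at -0.47 without WT 4T1OE replicate 1, -0.96 without Nlrx1-/- 4T1OE-CTL replicate 2, -3.26 without Nlrx1-/- 4T1OE-CTL replicate 1 and -3.75 without WT 4T1OE replicate 2, and Cacna1s was at -0.59 without WT 4T1OE-CTL replicate 2. The members' median standard error was 1.37 for this interaction. The F test for any difference among the 6 groups called 0 members, against 1.48% of features, with 3 members (8.33%) at an unadjusted p under 0.05, against 15.3% of all features. The smallest adjusted p-values (limma) were 0.187 for Tnnt1, 0.239 for Eno3 and 0.285 for Des.

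Lists of other tissues were read on the same arrays. The list of lymph node and B cell genes, with 11 measured, had a median deviation of 4.19 on Nlrx1-/- 4T1OE-CTL replicate 1, 3.21 on Nlrx1-/- 4T1OE replicate 1 and 2.10 on Nlrx1-/- parental replicate 1, and lay between -0.25 and 0.09 on the other 9 arrays. None of these 3 was among the 3 arrays where the muscle genes were highest. The skin keratinocyte list, with 9 genes, was at 2.36 on WT parental replicate 2, 1.15 on Nlrx1-/- 4T1OE-CTL replicate 1 and 1.12 on WT 4T1OE replicate 1, where the skin keratins Krt1 and Krt10 reached 12.26 and 11.42. The adipocyte list, with 11 genes, lay between -0.13 and 0.37 on all arrays, and its defining marker Adipoq stayed between 3.93 and 5.35, under the negative control median. Its brightest genes did not: Fabp4 ran from 7.92 to 11.33 and Lpl from 6.14 to 8.38, above that median on every array. The smooth muscle list, with 10 genes, ranged from -0.15 to 0.33, and the cardiac list, with 10, from -0.26 to 0.44. The part of the lymph node and keratinocyte tissue in the muscle values was not tested.

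**Figure D5:**
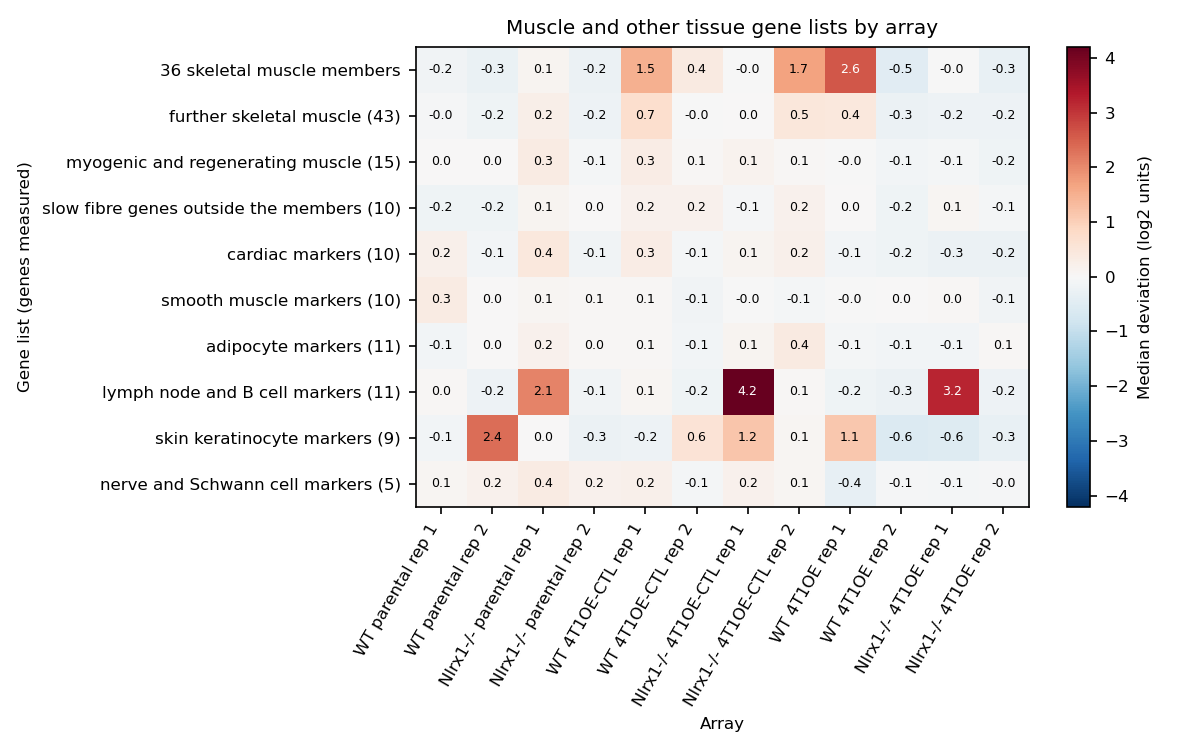
Median deviation from each gene's median over 12 arrays, in log2 units, of the 36 members and of 9 lists of other genes (rows, with the number of genes measured) on each array (columns); red is higher and blue lower. The muscle row is highest on WT 4T1OE replicate 1 (2.6) and the lymph node row on Nlrx1-/- 4T1OE-CTL replicate 1 (4.2).

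Other skeletal muscle genes moved less as a list, but many of them were dim. Of 45 further genes of sarcomere, membrane and muscle metabolism 43 were measured. Of these 6 had the same 3 arrays as their 3 highest, against 0.477% of all features. At most 6 of the 43 exceeded the 90th percentile of the negative controls on any array. Some, such as Klhl40, Myom2 and Trim54, stayed under the negative control median throughout, so their small changes cannot be read. Their median deviation was 0.43 on WT 4T1OE replicate 1, 0.71 on WT 4T1OE-CTL replicate 1 and 0.48 on Nlrx1-/- 4T1OE-CTL replicate 2. None was called in limma in any comparison, against at most 3.69% of all features in a given direction. Of 15 genes of myogenic cells and regenerating muscle, Myh8, the perinatal heavy chain, ran from 3.38 to 14.15 and was highest on the same 3 arrays (14.15, 12.32 and 11.08). Myog, Pax7 and Myh3, markers of differentiating cells, satellite cells and embryonic fibres, reached only 5.54, 4.68 and 4.68. Some others of the list were brighter. Pax3 ran from 5.76 to 7.29, above the negative control median on every array, and Ncam1 reached 6.50. Of this list Myl4, the embryonic and atrial light chain, was called, with a limma difference of -0.997 between 4T1OE and 4T1OE-CTL tumours (adjusted p = 0.0360) and of 1.22 between 4T1OE-CTL and parental tumours (adjusted p = 0.0271).

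Among all other named genes, the 10 whose values over the 12 arrays were most like the members' median deviation were Trdn (Pearson r = 0.97), Mybpc2 (0.97), Myh8 (0.96), Klhl31 (0.94), Klhl41 (0.94), Ndrg2 (0.93), Apobec2 (0.92), Tspan8 (0.88), Nrap (0.88) and Olfr464 (0.88). Trdn, triadin of the calcium release complex, ran from 5.31 to 9.80, and Mybpc2, the fast myosin-binding protein C, from 3.60 to 5.74. Apobec2 and Olfr464 stayed between 3.09 and 4.27 and between 4.58 and 5.42, so their likeness is one of dim values. Within the members, each itself part of the median, the same measure was highest for Tnnt3 and Atp2a1, at 0.99. It was lowest for Tnnt1 (0.38), Tnnc1 (0.15), Myl3 (0.08), Tnni1 (-0.02) and Myod1 (-0.31). The other slow fibre genes, Myh7 and Myl2, were at 0.93 and 0.73. Of these Myh7, Tnni1 and Myod1 lay under the negative control median on every array. These are descriptions over 12 arrays that share 3 high ones.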

How the data were processed

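The deposited file gave log2 expression values for transcript clusters, already normalized by the authors. Per the submitters' processing notes the tool was the Transcriptome Analysis Console, with no version. Background method, normalization and genome build were not given in the sources used here, and absolute levels are read only within a gene. No further scaling was applied. Of 28846 features 6640 controls were removed, and the remaining 22206 were all tested. Symbols came from the platform annotation, updated through gene identifiers. The manufacturer's control column was empty.

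limma 3.58.1 (R 4.3.3) fitted all features with lmFit and eBayes, two-sided, and p-values were adjusted by Benjamini-Hochberg over all of them, with a threshold of 0.05. Host genotype and cell line entered as additive terms over 11 arrays for the differences between lines and between hosts. The interaction and the F test came from a fit with a separate mean for every one of the 6 groups. The sample to leave out was named by the array service's own code and was matched here by its position in the sample order, an inference. The lone Nlrx1-/- parental array that remained is assumed to have the spread of the other groups. The number of arrays limits the precision of every value.

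Where all arrays on 1 side were under their negative control medians, a bound replaced the difference. It is the brighter side's mean, not adjusted for host, minus the dimmer side's mean after raising values under that median to it. Pairs of arrays, and an array against the 3 fitted parental arrays, were treated alike.

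All 36 members are described by their values. Fitted differences are printed for members called in a comparison and for the 3 with the smallest p. Members of the other lists were named where called, or for their level. The latter were defining markers or brighter genes of a list, chosen after their values were seen. The members, fibre classes and lists were chosen with earlier results of these data known. Alternatives were all 12 arrays, quantile normalization, leaving out dim features, a trend with robust hyperparameters, array weights, a replicate block, array standard deviation as a covariate, 1 mean per group, unadjusted p with a fold of 2, and each array left out in turn. Leaving out the 2 fitted arrays with high lymph node genes was chosen after seeing the data. The fit was tested on simulated data. Replicate numbers were not taken to pair arrays across groups, since the labels name no pairing.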

Additional observations from a re-analysis of the deposited data

Results flagged for a closer look

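Within the 4 arrays of each line and the 6 of each host, 195 sets of values were checked for an array lying far from its neighbours, and 31 had one. The nominal rate of the rule is about 1 in 20, but the host sets mix the cell lines. No rate over all features is given here, and the members were chosen with earlier results known, so the count tests nothing. The sets are not independent, since the genes share their arrays. WT 4T1OE replicate 1 accounted for 12, all among the 4T1OE arrays. There Myh4 stood at 15.1, Tnnt3 at 14.0, Tnni2 at 12.4, Atp2a1 at 11.1, Pygm at 11.0, Tnnc2 at 9.30, Actn3 at 8.93, Casq1 at 8.08, Ryr1 at 6.41 and Ldb3 at 5.92. The members' median deviation was 2.61 there, and that of the fast fibre genes 4.07.

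Nlrx1-/- 4T1OE-CTL replicate 2 accounted for 13, all among the arrays from Nlrx1-/- hosts. There Tnnt3 stood at 12.1, Myl1 at 11.0, Mylpf at 10.7, Tnni2 at 10.5, Myh4 at 10.5, Tpm2 at 10.02, Atp2a1 at 8.34, Tnnc2 at 8.09, Pvalb at 6.95, Myl2 at 6.30 and Ryr1 at 6.03. The members' median deviation was 1.69 there and that of the fast fibre genes 2.86.

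The other 6 were smaller. Nlrx1-/- parental replicate 1, the array left out of the fits, stood apart from the other parental arrays in Myh1 at 6.87, Myh4 at 5.49 and Tcap at 5.07. Myh4 and Tcap were under the negative control median of that array, 5.96, so their place apart cannot be read. WT 4T1OE-CTL replicate 1 stood apart from the other WT arrays in the slow fibre genes Tnnc1, at 8.46, and Myl3, at 7.28. WT parental replicate 2 stood apart in Myod1, at 3.92, which is under the background.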

How the results depend on the processing

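Under the alternatives no fitted difference of the members named in the comparisons changed direction, but the members' median did for 3 comparisons, as given below. The 4T1OE minus 4T1OE-CTL comparison called 1 member, but 0 with all 12 arrays, 0 with the spread of each array as a covariate, 0 without the 2 fitted arrays high in lymph node genes (an alternative chosen after seeing the data), 2 with array weights (Myl3 and Tnnt1) and 0 to 3 when single arrays were left out. Over all features the comparison called 1051, and under these settings in turn 25, 4, 60 and 2140, and 70 to 2663 with single arrays left out. The 4T1OE-CTL minus parental comparison called 1, but 0 with all 12 arrays, 0 with array weights, 0 with 1 mean for each of the 6 groups, 2 (Des and Eno3) without the lymph node arrays, 8 with an unadjusted p and a fold of 2, and 0 to 2 when single arrays were left out. Over all features the comparison called 575, and under these settings in turn 157, 663, 720, 420 and 1219, and 126 to 880 with single arrays left out. With the replicate number as a block it called 0 (480 over all features). Same-numbered arrays of different groups showed no consistent shared deviation (correlations from -0.31 to 0.37 over 10 pairs of groups, 2 of them over 0.1). The lymph node list, however, was high on replicate 1 of each Nlrx1-/- group, at 2.10 in parental, 3.21 in 4T1OE and 4.19 in 4T1OE-CTL tumours. The labels name no pairing, and the numbers were not taken as one. The 4T1OE minus parental comparison called 0 (295 over all features), and 1 (Eno3, of 1048) with the unadjusted threshold. The host, interaction and F-test counts were 0 under every alternative that could be fitted. Without Nlrx1-/- parental replicate 2 no array of that group is left, so the interaction and F test were not run. The members' median difference moved by more than its spread in 2 of 98 cases: to 0.31 for 4T1OE minus 4T1OE-CTL with the spread of each array as a covariate and to -0.01 for 4T1OE minus parental without WT 4T1OE replicate 1. For the interaction it turned from -0.93 to 0.34 without WT 4T1OE replicate 1 and to 0.05 without Nlrx1-/- 4T1OE-CTL replicate 2. The cause of these changes was not tested. With 2 pools a group, and the parental values of many members under the negative controls, the data limit what can be separated.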

Other observations

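A few genes of related contractile tissue differed between lines, in no common direction within their lists. Of all features 0.968% were called higher and 1.62% lower in 4T1OE-CTL against parental tumours. The shares were 3.69% and 1.04% for 4T1OE against 4T1OE-CTL, and 0.887% and 0.441% for 4T1OE against parental tumours. Of 10 cardiac genes 1 was called lower and 1 higher in 4T1OE-CTL against parental tumours, with a list median of 0.07. Of 10 smooth muscle genes 1 was called higher in 4T1OE against 4T1OE-CTL tumours, with a list median of -0.00347, and 1 lower in either transduced line against parental tumours, with medians of -0.02 for 4T1OE-CTL and -0.03 for 4T1OE. Of 10 further slow fibre genes 1 was called higher in 4T1OE against 4T1OE-CTL tumours, against the list median of -0.44. Tnnt2, cardiac troponin T, was lower than in parental tumours by 2.43 in 4T1OE-CTL and by 3.25 in 4T1OE tumours (limma adjusted p = 0.00925 and 0.00573, comparisons that share the parental arrays). The smooth muscle actin gene Acta2 differed by -1.82 between 4T1OE-CTL and parental tumours (limma adjusted p = 0.0174). Tagln, another smooth muscle gene, differed by -1.37 between 4T1OE and parental tumours (limma adjusted p = 0.0289). Smtn, smoothelin, was higher by 1.07 in 4T1OE than in 4T1OE-CTL tumours (limma adjusted p = 0.0260), and so was Hspb6, a small heat shock protein gene of slow and smooth muscle, by 2.07 (limma adjusted p = 0.0316). Ncmap, a myelin-associated gene, was lower than in parental tumours by 1.56 in 4T1OE-CTL and by 1.98 in 4T1OE tumours (limma adjusted p = 0.0271 and 0.0157). No member of the adipocyte, keratinocyte or lymph node lists was called in any comparison.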
